A study of Mus musculus with 6 samples.

Results

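The genes described here encode the subunits of the 5 oxidative phosphorylation complexes of mitochondria, together with 6 assembly factors of complex I. They were chosen by name. All transcript clusters of the array whose platform annotation gives a single gene symbol were searched for symbols beginning with Nduf, Uqcr or Atp5, for *Cox4* to *Cox8* and for *Sdha* to *Sdhd*, which gave 60 genes with 1 cluster each, out of 14860 genes with such a cluster and 23332 clusters in all. By complex these were 27 subunits of complex I, 6 complex I assembly factors, 4 subunits of complex II, 5 of complex III, 10 of complex IV and 8 of complex V. RefSeq lists 96 protein-coding mouse genes under these names. A further 7 clusters carried a symbol of this kind together with another gene's and were left out, among them those of *Ndufa10*, *Cox6c*, *Atp5o* and *Atp5c1*.

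Complex I passes electrons from NADH to ubiquinone, complex II does so from succinate, complex III hands them on to cytochrome c, and complex IV passes them to oxygen. Complexes I, III and IV pump protons across the inner membrane as they do so, and complex V, the ATP synthase, uses the returning protons to make ATP. Neural progenitors are known for their glycolytic metabolism and neurons for their dependence on oxidative phosphorylation.

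The RNA came from GFP+ cells that were sorted out of the dissected dorsal spinal cord of mouse embryos carrying *Wnt1-cre* and *Rosa26mTmG*. Cre made where *Wnt1* is active turns a Rosa26 reporter from a membrane-bound red protein into membrane-bound GFP, and all descendants of the cell inherit the switch. All groups carried the same alleles and no treatment, and they differed in embryonic day alone, with 2 arrays for each of E10.5, E11.5 and E12.5. *Wnt1* is active in the dorsal neural tube and in the neural crest that leaves it, so the label marks a lineage and not a single neuron type.

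Signals are log2 values of whole transcript clusters on an exon array, and a difference of 1 on this scale is a 2-fold difference. Different clusters hold different probes, so signals were compared between arrays for the same gene and not between genes. The number of arrays, 2 per stage, limits the precision. The labels and methods do not say whether arrays of 1 stage had separate litters or pools behind them, so that p-values reflect only the spread among these samples, and that spread may be technical. As a detection limit served a signal of 5.83, below which lay the means of 95% of 833 clusters for olfactory, vomeronasal and taste receptors, which these cells are not known to use. The mean of 51 of the 60 genes lay above it. The other 9 were *Ndufa1*, *Ndufa6*, *Ndufa7*, *Ndufb2*, *Ndufb11*, *Cox7a2*, *Cox7b*, *Cox7b2* and *Cox8b*, and their means cannot be told from background. With the same limit taken on each array alone, *Ndufa1* and *Ndufa6* lay above it on the replicate 2 array of every stage. *Ndufb11*, *Cox7a2* and *Cox7b* did so on the replicate 2 arrays of E10.5 and E12.5. On the replicate 1 arrays all 9 lay below it.

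The 6 arrays were not alike. Replicate 1 at E10.5 correlated least with the rest (mean r of 0.89, while each of the other 5 had 0.948 to 0.955) and had the narrowest spread of signals (SD 1.66 over all clusters, against 1.78 to 1.96). The 95th percentile of the receptor genes on single arrays was 6.54, 6.14 and 6.53 on the replicate 1 arrays of E10.5, E11.5 and E12.5, and 5.36, 5.34 and 5.36 on the replicate 2 arrays. Replicate 1 arrays therefore had the higher background at every stage. Of the 60 genes, 35, 48 and 39 lay above this percentile on the replicate 1 arrays of E10.5, E11.5 and E12.5. On the replicate 2 arrays 56, 53 and 56 did. All stage differences are given within each replicate number as well as over all arrays.

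The oxidative phosphorylation genes had their lowest median signal on the E10.5 replicate 1 array. Their median signal was 6.76 on that array, and 7.31, 7.17, 7.09, 6.91 and 7.24 on E10.5 replicate 2, the E11.5 replicates 1 and 2, and the E12.5 replicates 1 and 2. Of the 60 genes, 33 (55.0%) had their lowest signal on E10.5 replicate 1, against 23.1% of all clusters and 46.2% of the 6795 single-gene clusters above the limit. On that array 11 genes lay more than 1 below all other arrays, as did 4.06% of all clusters and 5.77% of the single-gene clusters above the limit, and no gene did so on any other array. These 11 were *Ndufb3*, *Ndufa9*, *Ndufc2*, *Ndufs1*, *Ndufv2*, *Ndufb8* and *Ndufs8* of complex I, *Cox6b1* and *Cox4i1* of complex IV, and *Atp5a1* and *Atp5b* of complex V. On that array *Ndufb3*, *Ndufa9*, *Ndufc2*, *Ndufb8* and *Ndufs8* lay below its receptor percentile of 6.54, so these signals cannot be told from background. Another 10 genes had their highest signal on the same array, including *Sdhd*, *Cox4i2*, *Ndufa8* and *Atp5j2*. Over the other 5 arrays, which span all 3 stages, the range of a gene's signals had a median of 0.50. It was under 0.5 for 30 genes, under 1 for 53, and 1.54 at most. This range was not taken for other clusters.

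**Figure D1:**
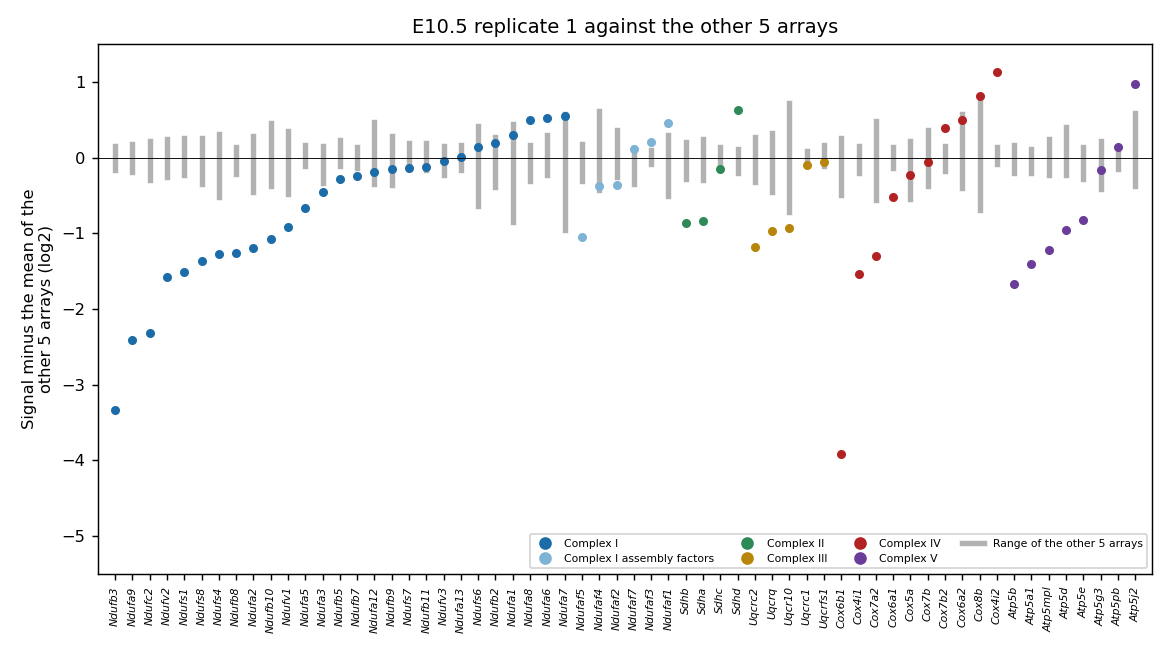
Signal of each of the 60 genes on the E10.5 replicate 1 array (coloured points, by complex) minus the mean of the other 5 arrays, in log2 units, with the range of those 5 arrays as grey bars. Of the points, 33 lie below their grey bar and 10 above it, and *Cox6b1* and *Ndufb3* lie farthest below.

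No oxidative phosphorylation gene passed the test between any stages. In limma fitted over all 23332 clusters, 0 clusters had an adjusted p under 0.05 (0.0% called) in each of the 3 comparisons. Between E12.5 and E10.5 the unadjusted p was under 0.05 for 411 clusters with a higher signal at E12.5 (1.76%) and 517 with a lower one (2.22%), and for 0 of the 60 genes in either direction. For E11.5 against E10.5 these shares were 0.831% and 1.16%, for E12.5 against E11.5 they were 0.373% and 0.536%, and again 0 of the 60 genes were among them. The smallest adjusted p of the 60 was 0.991, and limma without moderation likewise called 0 clusters and 0 genes after adjustment, with 1 gene at an unadjusted p under 0.05 in each of the comparisons with E10.5. Since each value comes from a mixture of sorted cells, fewer cells of a type and less RNA per cell cannot be told apart.

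The sizes of the differences depended on the replicate number. The median difference of the 60 genes between E12.5 and E10.5 was 0.08 over all arrays, 0.23 within replicate 1 and -0.03 within replicate 2. The corresponding medians of all clusters were -0.10, -0.14 and -0.03, and those of single-gene clusters above the limit were 0.05, 0.11 and -0.004. Within replicate 2, 54 of the 60 genes differed by less than 0.5 in either direction, and the exceptions were *Ndufa12*, *Cox8b*, *Ndufaf2*, *Ndufaf4* and *Uqcr10*, lower by 0.54 to 0.72, and *Atp5j2*, higher by 0.52. Within replicate 1 only 25 did, and the differences ran from -1.51 for *Ndufa7* to 3.43 for *Cox6b1*. The sign was the same in both replicate numbers for 19 higher and 17 lower genes (31.7% and 28.3%, against 20.0% and 35.0% of all clusters and 32.7% and 25.4% of single-gene clusters above the limit), and opposite for 24. The share of higher genes was thus near that of other genes above the limit.

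Both E12.5 arrays lay above both E10.5 arrays for 2 genes, *Cox6a1* and *Cox7b*, and below both for 9 genes. Of all clusters, 9.35% lay above and 14.0% below in this way, and of single-gene clusters above the limit 17.1% and 13.5%. The 3.33% of the genes that lay above was under both backgrounds, and the 15.0% that lay below was near them. The 9 lower genes were *Ndufa1*, *Ndufa6*, *Ndufa7*, *Ndufa8*, *Ndufa12*, *Ndufs6*, *Ndufaf1*, *Ndufaf7* and *Atp5pb*, so that 8 of them belonged to complex I or its assembly, which make up 33 of the 60 genes. Of the genes without overlap, *Cox7b*, *Ndufa1*, *Ndufa6* and *Ndufa7* were below the detection limit. Among the 51 genes above the limit, both E12.5 arrays were higher for 1 (1.96%) and lower for 6 (11.8%). Without E10.5 replicate 1 the counts of the 60 genes were 4 higher and 28 lower. The shares were then 33.9% and 29.7% of all clusters, and 29.2% and 42.2% of single-gene clusters above the limit. The split also moved with the scaling of the arrays, to 6 higher and 7 lower after quantile normalization (15.6% and 14.4% of all clusters, 22.6% and 14.2% of single-gene clusters above the limit) and to 11 higher and 4 lower after each array was centred on its median and scaled (18.1% and 11.1% of all clusters, and 1789 and 712 of the 6795 single-gene clusters). The counts of all clusters shifted towards higher signals at E12.5 as well.

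**Figure D2:**
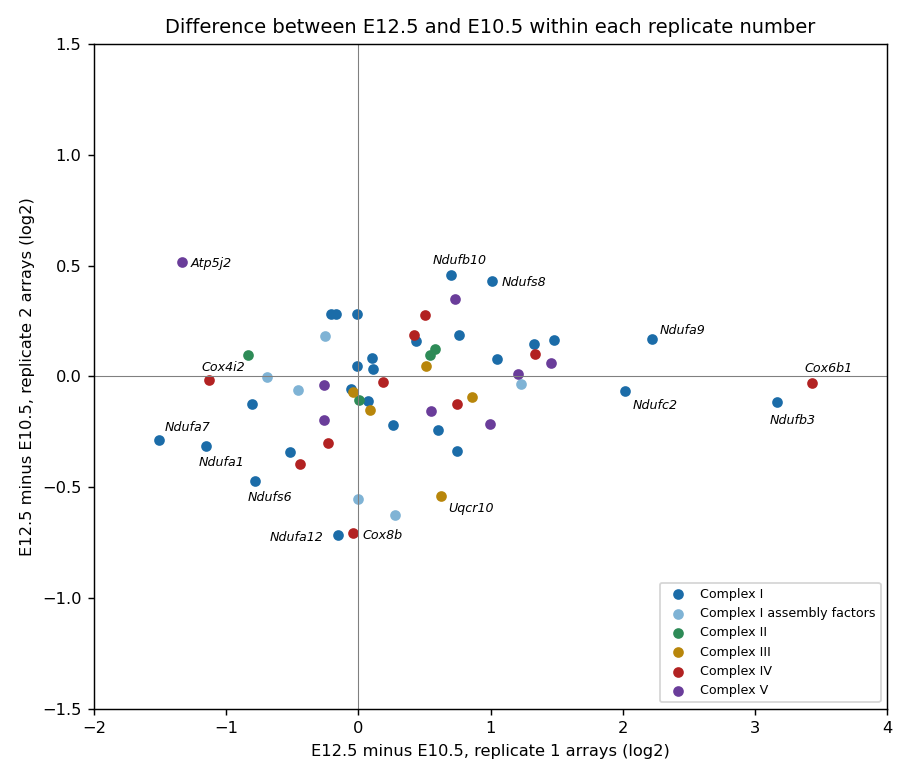
Difference between E12.5 and E10.5 of each gene within the replicate 1 arrays (horizontal axis) and within the replicate 2 arrays (vertical axis), in log2 units and coloured by complex. The vertical spread is between -0.72 and 0.52, while the horizontal spread is between -1.51 and 3.43, and *Cox6b1*, *Ndufb3*, *Ndufa9* and *Ndufc2* lie far to the right at a replicate 2 difference near 0.

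Complex I has a set of core subunits, conserved from bacteria, that carry the redox centres and the proton channels, and many accessory subunits added around them. Of the core subunits, 5 nuclear-encoded ones were measured, and 4 were higher at E12.5 in both replicate numbers, *Ndufv1*, *Ndufv2*, *Ndufs1* and *Ndufs8*, while the fifth, *Ndufs7*, was lower by 0.01 within replicate 1 and higher by 0.28 within replicate 2. Of all clusters 20.0% were higher in both replicate numbers, and of single-gene clusters above the limit 32.7%. All 5 core subunits were higher within replicate 2, by 0.15 to 0.43. None of them had E12.5 arrays that both lay above both E10.5 arrays. *Ndufv2*, an iron-sulfur subunit of the NADH-oxidizing module, had signals of 7.14 and 8.79 on the E10.5 arrays (replicates 1 and 2), 8.46 and 8.76 on those of E11.5, and 8.62 and 8.96 on those of E12.5. *Ndufs8*, which holds iron-sulfur clusters next to the quinone site, had signals of 5.33 and 6.51 on the E10.5 arrays, 6.78 and 6.86 on those of E11.5, and 6.34 and 6.94 on those of E12.5. The E10.5 replicate 1 array was the lowest for both genes. Both E11.5 arrays lay below E10.5 replicate 2 for *Ndufv2* and above it for *Ndufs8*, and the E12.5 arrays lay on either side of it for both. The difference of *Ndufs8* between E12.5 and E10.5 was 0.72 (SE 0.45, limma adjusted p = 0.991).

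Of the 22 accessory subunits of complex I, 6 were higher in both replicate numbers and 7 lower in both. The shares were 20.0% and 35.0% of all clusters, and 32.7% and 25.4% of single-gene clusters above the limit. The higher ones included *Ndufb10*, with signals of 5.76 and 6.84 on the E10.5 arrays, 6.56 and 7.06 on those of E11.5, and 6.46 and 7.30 on those of E12.5, a difference of 0.70 within replicate 1 and 0.46 within replicate 2. The stages of *Ndufb10* overlapped. The lower ones were *Ndufa1*, *Ndufa6*, *Ndufa7*, *Ndufa8*, *Ndufa12*, *Ndufs6* and *Ndufv3*, and E12.5 and E10.5 arrays did not overlap for all but *Ndufv3*. Without overlap, 0 of the 22 were thus higher and 6 lower. Beside this stood 9.35% higher and 14.0% lower of all clusters, and 17.1% and 13.5% of single-gene clusters above the limit.

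*Ndufs6*, a small zinc-binding subunit of the NADH-oxidizing module, had signals of 7.78 and 8.04 on the E10.5 arrays, 8.01 and 7.54 on those of E11.5, and 6.99 and 7.57 on those of E12.5. The E12.5 arrays were lower by 0.78 within replicate 1 and by 0.47 within replicate 2, and E11.5 overlapped both of the other stages. The fitted difference was -0.63 (SE 0.35, 95% interval -1.45 to 0.20, limma adjusted p = 0.991). *Ndufa12*, which joins the same part of the complex late in assembly, had signals of 6.02 and 6.68 on the E10.5 arrays, 6.09 and 6.47 on those of E11.5, and 5.86 and 5.96 on those of E12.5. Both E12.5 arrays lay below all 4 earlier arrays, and the replicate 2 difference, -0.72, was the lowest of the 60 genes. *Ndufa8*, a subunit on the intermembrane side with twin cysteine motifs, had signals of 7.65 and 7.32 on the E10.5 arrays, 7.30 and 7.10 on those of E11.5, and 6.84 and 7.19 on those of E12.5. Its E10.5 arrays were the highest of the 6, and its differences were -0.81 within replicate 1 and -0.12 within replicate 2.

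Of the lower accessory subunits, *Ndufa1*, *Ndufa6* and *Ndufa7* were below the detection limit. *Ndufa7* had the lowest difference of complex I, with signals of 4.29 and 4.32 on the E10.5 arrays, 3.31 and 4.25 on those of E11.5, and 2.78 and 4.03 on those of E12.5, while *Ndufa1*, a membrane-arm subunit encoded on the X chromosome, had the smallest p. Its signals were 5.55 and 5.69 on the E10.5 arrays, 5.15 and 5.64 on those of E11.5, and 4.40 and 5.37 on those of E12.5, a difference of -0.73 (SE 0.41, limma adjusted p = 0.991). The replicate 1 arrays of E11.5 and E12.5 were the lowest for both. *Ndufv3*, an accessory subunit of the NADH-oxidizing module, was at 6.54 and 6.73, 6.35 and 6.64, and 6.48 and 6.68 in the same order, with differences of -0.05 within replicate 1 and -0.06 within replicate 2.

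*Ndufb3*, an accessory subunit of the membrane arm, had the highest difference of complex I and showed how far a single array could set it. Its signals were 5.96 and 9.44 on the E10.5 arrays, 9.43 and 9.15 on those of E11.5, and 9.12 and 9.32 on those of E12.5. The E12.5 arrays differed from the E10.5 arrays by 3.16 within replicate 1 and -0.12 within replicate 2, and 1.52 over all arrays (SE 0.97, 95% interval -0.77 to 3.82, limma adjusted p = 0.991). *Ndufa9*, which lies where the complex's arms meet, was at 6.40 on E10.5 replicate 1 and between 8.63 and 8.99 on the other arrays, with differences of 2.22 and 0.17 within replicates 1 and 2. *Ndufc2*, a membrane-arm subunit, was at 5.89 on that array and between 7.91 and 8.42 on the others, with differences of 2.02 and -0.07. The signals of *Ndufb3*, *Ndufa9* and *Ndufc2* on E10.5 replicate 1 lay below that array's receptor percentile of 6.54. When E10.5 replicate 2 was left out, so that E10.5 rested on replicate 1 alone, 4 genes were called between E12.5 and E10.5, *Ndufb3*, *Ndufa9*, *Ndufc2* and *Cox6b1* (smallest limma adjusted p = 0.0284, against 0.302 to 1 in the alternatives that kept it). In that fit 0.887% of all clusters were called higher. When replicate 1 was left out in its place, none was called and the 4 differences were -0.22, -0.02, -0.29 and -0.39.

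The 6 assembly factors, which build complex I and are not part of the finished enzyme, had a median difference of -0.22, and 0 were higher and 3 lower in both replicate numbers. Of all clusters 20.0% were higher and 35.0% lower in both, and of single-gene clusters above the limit 32.7% and 25.4%. *Ndufaf1*, which acts on an early membrane intermediate, had the lowest difference. It had signals of 6.77 and 6.53 on the E10.5 arrays, 5.80 and 6.60 on those of E11.5, and 6.08 and 6.52 on those of E12.5, and the E12.5 replicate 2 array differed from its E10.5 counterpart by -0.0047. *Ndufaf5*, which hydroxylates a core subunit, had the highest difference and smallest p, with 5.74 and 6.83, 6.48 and 6.89, and 6.97 and 6.80 in the same order. Its difference was 0.60 (SE 0.42, limma adjusted p = 0.991), made up of 1.23 within replicate 1 and -0.04 within replicate 2. *Ndufaf7*, a methyltransferase for another core subunit, was lower by 0.46 and 0.06, and *Ndufaf4* by 0.55 within replicate 2, with equal signals to 2 decimals within replicate 1. *Ndufaf2* and *Ndufaf3* had opposite signs in the 2 replicate numbers.

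Complex II, the succinate dehydrogenase shared with the citric acid cycle, was measured in full. *Sdha*, the flavin-binding catalytic subunit, had signals of 8.16 and 9.04 on the E10.5 arrays, 8.86 and 9.23 on those of E11.5, and 8.70 and 9.14 on those of E12.5. *Sdhb*, the iron-sulfur subunit, had 5.43 and 6.38, 6.28 and 6.34, and 6.01 and 6.50. Both catalytic subunits were lowest on E10.5 replicate 1, and higher at E12.5 by 0.54 and 0.58 within replicate 1 and by 0.09 and 0.12 within replicate 2. *Sdhd*, a membrane anchor, differed in the other direction within replicate 1, with signals of 7.39 and 6.70 on the E10.5 arrays, 6.87 and 6.88 on those of E11.5, and 6.56 and 6.80 on those of E12.5. Its highest signal was on E10.5 replicate 1, and its differences were -0.83 and 0.10. *Sdhc*, the other anchor, was between 7.54 and 7.83 on all 6 arrays, with a difference of -0.05 (95% interval -0.73 to 0.63). Within replicate 2 the differences of the 4 subunits ran from -0.11 to 0.12.

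The 5 complex III genes had a median difference of 0.51 within replicate 1 and -0.09 within replicate 2. *Uqcrc2*, a core protein with no redox centre, had the highest difference and smallest p, with signals of 7.89 and 9.34 on the E10.5 arrays, 8.86 and 9.15 on those of E11.5, and 8.75 and 9.25 on those of E12.5. The difference was 0.38 (SE 0.50, limma adjusted p = 0.991), 0.86 within replicate 1 and -0.09 within replicate 2, and the E10.5 arrays were its lowest and its highest. *Uqcrfs1*, the Rieske iron-sulfur protein, had the lowest difference, with signals of 7.13 and 7.35 on the E10.5 arrays, 7.15 and 7.08 on those of E11.5, and 7.09 and 7.28 on those of E12.5. The other core protein gene, *Uqcrc1*, was as narrow, between 7.11 and 7.30. Among the small subunits, *Uqcrq* was higher by 0.51 and 0.04, and *Uqcr10* was higher by 0.63 within replicate 1 and lower by 0.54 within replicate 2.

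**Figure D3:**
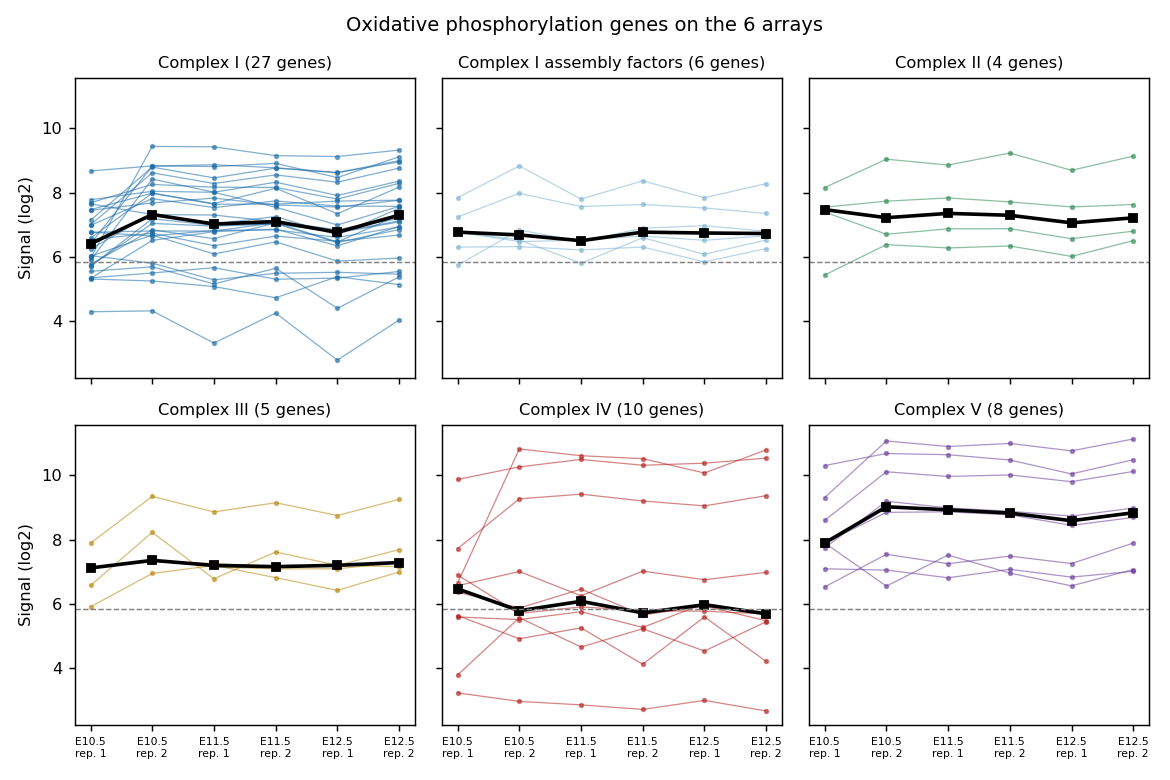
Signals (log2) of all 60 genes on the 6 arrays, in a panel for each complex. Each thin line with points is a gene, the black squares are the median of the panel's genes, and the dashed line is the detection limit of 5.83. Most lines are level from the second array on, and many lines of complexes I, III and V start lower on E10.5 replicate 1.

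Complex IV was the group in which isoforms could be compared across stages. *Cox6b1*, a subunit on the intermembrane side, had the highest difference of the 60 genes. Its signals were 6.64 and 10.82 on the E10.5 arrays, 10.61 and 10.52 on those of E11.5, and 10.07 and 10.79 on those of E12.5. A single array, E10.5 replicate 1, lay 3.43 below the next lowest, and the other 5 spanned 0.75. The difference was 1.70 (SE 1.16, 95% interval -1.05 to 4.45, limma adjusted p = 0.991), with 3.43 within replicate 1 and -0.03 within replicate 2.

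*Cox4i1*, the widely used isoform of subunit 4, had signals of 7.72 and 9.27 on the E10.5 arrays, 9.41 and 9.20 on those of E11.5, and 9.05 and 9.37 on those of E12.5. *Cox4i2*, the isoform known from lung and from cells short of oxygen, had 6.90 and 5.70, 5.90 and 5.78, and 5.77 and 5.68, and its mean was above the limit mainly through E10.5 replicate 1. With the limit taken on each array alone, it lay above on E10.5 replicate 1 and on the replicate 2 array of every stage. The isoforms deviated on E10.5 replicate 1 in opposite directions, and within replicate 2 they differed between E12.5 and E10.5 by 0.10 and -0.02. *Cox6a1*, the widely used isoform of subunit 6a, had signals of 9.87 and 10.26 on the E10.5 arrays, 10.49 and 10.31 on those of E11.5, and 10.38 and 10.54 on those of E12.5. Both E10.5 arrays lay below all 4 later arrays, and E12.5 exceeded E10.5 by 0.51 within replicate 1, 0.28 within replicate 2 and 0.39 in the fit (SE 0.31, 95% interval -0.33 to 1.11, limma adjusted p = 0.991). *Cox6a2*, its heart and skeletal muscle isoform, had 6.36 and 5.87, 6.45 and 5.65, and 5.93 and 5.47, lower at E12.5 by 0.44 and 0.40. The replicate 1 array was above the replicate 2 array at each stage, as were the receptor genes that set the limit.

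The other complex IV genes with isoform partners were below the detection limit. *Cox7b* had 5.59 and 5.51 on the E10.5 arrays, 5.75 and 5.26 on those of E11.5, and 6.01 and 5.69 on those of E12.5, and its E12.5 arrays lay above those of E10.5 but not above those of E11.5. *Cox7b2* had 3.22 and 2.96, 2.85 and 2.71, and 2.99 and 2.66, *Cox7a2* had 3.78 and 5.56, 4.65 and 5.22, and 4.53 and 5.44, and *Cox8b*, the muscle isoform of subunit 8, had 5.63 and 4.91, 5.25 and 4.11, and 5.59 and 4.20. The replicate 1 arrays were higher at each stage for *Cox7b2* and *Cox8b* and lower at each stage for *Cox7a2*. *Cox5a*, which has no isoform partner, was between 6.25 and 7.01.

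The complex V genes encode parts of the catalytic head, F1, which makes ATP as its central stalk turns, and of the membrane part and outer stalk. At E12.5, 3 of the 4 head genes were higher in both replicate numbers, and of the 4 other genes 0 were higher and 2 lower in both. For all clusters the shares were 20.0% higher and 35.0% lower, and for single-gene clusters above the limit 32.7% and 25.4%. *Atp5b*, the catalytic beta subunit, had signals of 9.31 and 11.07 on the E10.5 arrays, 10.90 and 10.99 on those of E11.5, and 10.76 and 11.13 on those of E12.5. *Atp5a1*, the alpha subunit beside it, had 8.59 and 10.11, 9.96 and 10.01, and 9.80 and 10.12. Both were lowest on E10.5 replicate 1, their other 5 signals spanned less than 0.5, and within replicate 2 their differences were 0.06 and 0.01. *Atp5b* had the highest difference of the complex, 0.76 (SE 0.56, limma adjusted p = 0.991).

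*Atp5d*, the delta subunit of the central stalk, had signals of 6.52 and 7.54 on the E10.5 arrays, 7.25 and 7.48 on those of E11.5, and 7.25 and 7.89 on those of E12.5, with differences of 0.73 and 0.35. The stages overlapped. *Atp5e*, the epsilon subunit, was higher by 0.55 within replicate 1 and lower by 0.16 within replicate 2. In the membrane, *Atp5g3*, which encodes the ring subunit that turns with the protons, had 10.30 and 10.68, 10.64 and 10.48, and 10.04 and 10.49, lower at E12.5 by 0.26 and 0.20. *Atp5j2*, the small f subunit, had the lowest difference of the complex, with 7.89 and 6.55 on the E10.5 arrays, 7.52 and 6.96 on those of E11.5, and 6.56 and 7.06 on those of E12.5. Its differences were -1.34 and 0.52, opposite in the replicate numbers. *Atp5pb*, the b subunit of the outer stalk, had no overlap between E12.5 and E10.5, but differed by -0.26 and -0.04. *Atp5mpl* was higher by 0.99 and lower by 0.21.

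Between E11.5 and E10.5 the median difference of the 60 genes was 0.32 within replicate 1 and -0.08 within replicate 2. The medians were -0.15 and 0.00 for all clusters, and 0.14 and 0.002 for single-gene clusters above the limit. Both comparisons with E10.5 share the E10.5 arrays. Both E11.5 arrays lay above both E10.5 arrays for 3 genes, *Ndufs8*, *Ndufa13* and *Cox6a1*, and below both for 5, *Ndufa6*, *Ndufa7*, *Ndufa8*, *Ndufb2* and *Cox7b2* (9.48% and 9.9% of all clusters, 14.8% and 7.43% of single-gene clusters above the limit). Of the 5 lower genes, all but *Ndufa8* were below the detection limit. Without E10.5 replicate 1 the counts were 7 and 34. The shares were then 37.9% and 26.9% of all clusters, and 29.1% and 40.1% of single-gene clusters above the limit.

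Between E12.5 and E11.5, a comparison without the E10.5 arrays, more of the genes stayed close. The median difference was -0.05 over all arrays, -0.16 within replicate 1 and 0.08 within replicate 2, and 59 of 60 genes differed by less than 0.5 within replicate 2 and 50 within replicate 1. Both E12.5 arrays lay above both E11.5 arrays for *Ndufb2* and *Ndufb5*, and below both for 7 genes (8.46% and 13.4% of all clusters, 11.3% and 14.8% of single-gene clusters above the limit). The 7 were *Ndufa2*, *Ndufa12*, *Ndufaf2*, *Sdhc*, *Sdhd*, *Cox4i2* and *Atp5e*. With each array centred and scaled, the median difference was 0.02, and 7 genes lay above and 3 below (3731 and 2456 of the 23332 clusters, 23.0% and 9.79% of single-gene clusters above the limit). *Ndufa12* was lower by 0.22 within replicate 1 and by 0.51 within replicate 2.

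Lists of ribosomal protein genes and of genes that share the work of the complexes gave 0 calls after adjustment, as did all clusters. Cytoplasmic ribosomal protein genes (21 measured) had a median difference between E12.5 and E10.5 of 0.06 within replicate 1 and -0.21 within replicate 2, and mitochondrial ribosomal protein genes (65 measured) had -0.04 and -0.13. The 32 assembly factors of the respiratory complexes with other names had 0.20 and -0.04. *Atpaf1*, which assembles the head of complex V, had the smallest p among them. It had signals of 7.35 and 6.03 on the E10.5 arrays, 5.75 and 5.84 on those of E11.5, and 5.72 and 5.58 on those of E12.5, and its difference was -1.04 (SE 0.45), -1.64 within replicate 1 and -0.45 within replicate 2.

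Of 18 regulators of respiratory genes, 2 were higher and 9 lower in both replicate numbers, and the unadjusted p was under 0.05 for *Esrrg* (higher) and *Polg2* (lower) alone. The same sign in both was found for 20.0% (higher) and 35.0% (lower) of all clusters. For single-gene clusters above the limit it was 32.7% and 25.4%. *Esrrg*, an orphan nuclear receptor that activates genes of oxidative metabolism in heart and muscle, had the smallest p. Its signals were 6.69 and 6.24 on the E10.5 arrays, 6.60 and 6.89 on those of E11.5, and 8.0 and 8.35 on those of E12.5. Both E12.5 arrays lay above all 4 earlier arrays, and the difference was 1.71 (SE 0.33, limma adjusted p = 0.895). *Nrf1*, *Gabpa* and *Yy1*, which encode factors that bind promoters of respiratory genes, had differences of -0.16, 0.00 and -0.17, and *Ppargc1a*, their coactivator, 0.39.

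Each remaining list was small. Of the carriers and channels of the membranes, *Vdac1*, the outer-membrane channel, had 5.74 and 8.42 on the E10.5 arrays, 8.19 and 8.69 on those of E11.5, and 7.75 and 8.87 on those of E12.5, again lowest on E10.5 replicate 1. *Slc25a14*, an uncoupling protein relative of the nervous system, had 6.19 and 6.81, 6.94 and 7.22, and 7.29 and 7.40, and its E12.5 arrays lay above all earlier ones (difference 0.84, SE 0.34, limma adjusted p = 0.991). *Cyc1*, cytochrome c1 of complex III, had 6.96 and 8.37, 7.73 and 8.26, and 7.57 and 8.34, and was also lowest on E10.5 replicate 1. *Coq10b*, which binds coenzyme Q, had 7.71 and 7.98, 7.95 and 7.76, and 7.22 and 7.66, and both of its E12.5 arrays lay below all earlier ones. *Atpif1*, the inhibitor of ATP synthase, had 10.04 and 10.25, 10.23 and 10.17, and 10.20 and 10.33, so that its stages overlapped.

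Markers of cell types were measured on the same arrays. Their counts stand beside 20.0% of all clusters higher and 35.0% lower at E12.5 in both replicate numbers. Of single-gene clusters above the limit, 32.7% were higher and 25.4% lower. All 8 neuronal markers measured were above the limit, and 7 of them, all but *Nefm*, were higher at E12.5 in both replicate numbers. Their median difference was 0.49 within replicate 1 and 0.55 within replicate 2, and their median signal was 9.78 and 9.94 on the E10.5 arrays, 10.07 and 10.00 on those of E11.5, and 10.04 and 10.25 on those of E12.5. Of 10 progenitor markers, 1 was higher and 4 were lower in both, with medians of -0.31 and -0.07. Of the dorsal spinal cord markers 10 of 12 were above the limit, with medians of -0.56 and 0.09, and of the neural crest markers 3 of 5, with -0.14 and -0.38. Above the limit were 1 of 8 ventral spinal cord, 2 of 4 red cell, 1 of 6 muscle, 2 of 7 microglial and 0 of 7 endothelial markers, of which 6, 3, 3, 3 and 5 were lower at E12.5 in both replicate numbers. The medians of these 5 lists ran from -0.67 to -0.25 within replicate 1 and from -0.13 to 0.04 within replicate 2. On E10.5 replicate 1 they lay above the mean of the other 5 arrays, by 0.62 (endothelial) to 0.90 (red cell), where the median of all clusters lay above it by 0.23, that of the neuronal markers differed by -0.51 and that of the oxidative phosphorylation genes by -0.32. The part of these cell types in the differences of the oxidative phosphorylation genes was not tested.

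**Figure D4:**
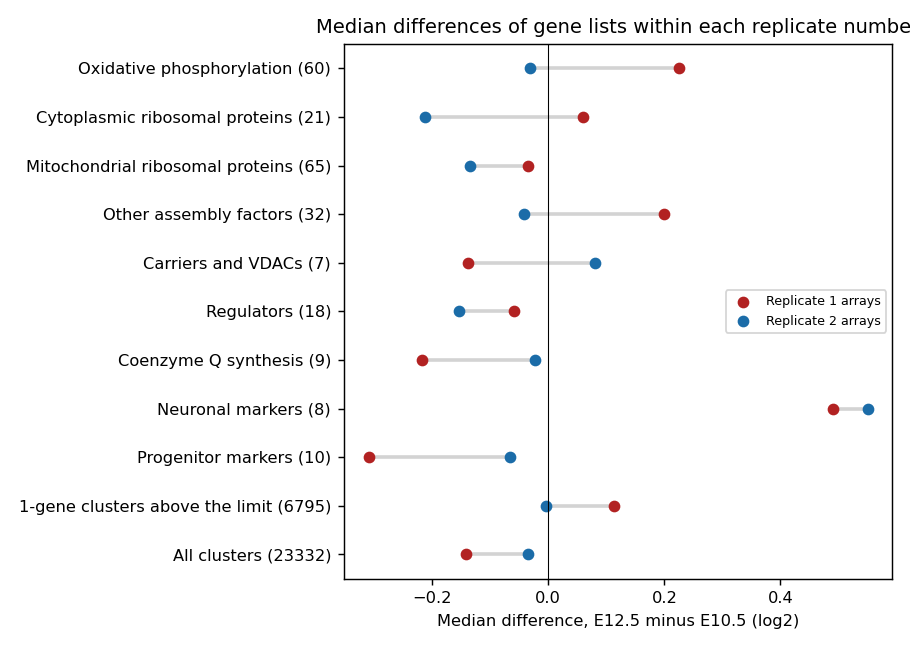
Median difference between E12.5 and E10.5 (log2) of each gene list within the replicate 1 arrays (red) and the replicate 2 arrays (blue), with the number of genes or clusters in parentheses. The oxidative phosphorylation genes lie at 0.23 and -0.03, and neuronal markers lie at 0.49 and 0.55.

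Promoters of some of the genes held letters that the choice by name did not use. RefSeq windows (GRCm38.p6) of 250 bases before to 50 bases after a transcript start were at hand for 49 of the 60 genes, in 52 windows. Both strands were searched for the paired half-sites of the factor NRF1 (GCGCA, any base, GCGC), an ETS core as bound by GABP (CCGGAAG), a YY1 site (AAGATGGC) and a TATA box (TATAAA), none of which contains another. The NRF1 letters were in 23.1% of the windows of these genes and 4.6% of all 32851 windows, the ETS letters in 15.4% and 8.86%, the YY1 letters in 15.4% and 2.75%, and the TATA letters in 13.5% and 13.6%. Of the 49 genes, 24 held NRF1, ETS or YY1 letters, a combined count that was not made for all windows. Such a match is a description and no evidence of binding in these cells.

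The windows of 3 genes are shown because their arrays were separate between stages, *Ndufs6* (chr13:73328433-73328732, minus strand), whose E12.5 arrays lay below its E10.5 arrays, *Cox6a1* (chr5:115348909-115349208, minus strand), which was higher at both later stages, and *Ndufs8* (chr19:3912725-3913024, minus strand), which was higher at E11.5. Each is printed 5′ to 3′ on the gene's strand, with matches on either strand in capitals. *Ndufs6* holds an NRF1 match beginning 16 bases before the start and YY1 letters from base 34 after it, *Cox6a1* holds NRF1 matches from 162 and 117 bases before the start and an ETS match from 16 bases before it, and *Ndufs8* holds an ETS match from base 16 after it. Whether such letters go with a direction of the stage differences was not tested.
Ndufs6: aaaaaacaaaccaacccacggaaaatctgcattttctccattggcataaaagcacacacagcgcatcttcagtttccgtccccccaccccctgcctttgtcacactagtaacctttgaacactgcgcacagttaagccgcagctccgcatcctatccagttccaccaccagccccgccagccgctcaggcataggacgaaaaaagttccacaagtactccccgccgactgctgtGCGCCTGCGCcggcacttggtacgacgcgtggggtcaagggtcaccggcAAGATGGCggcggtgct
Cox6a1: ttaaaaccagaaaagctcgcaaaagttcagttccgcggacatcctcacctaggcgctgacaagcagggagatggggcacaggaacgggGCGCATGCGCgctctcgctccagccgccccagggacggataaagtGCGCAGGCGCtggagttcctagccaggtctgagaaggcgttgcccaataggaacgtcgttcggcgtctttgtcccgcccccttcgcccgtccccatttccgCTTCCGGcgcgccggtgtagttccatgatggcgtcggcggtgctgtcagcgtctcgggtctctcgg
Ndufs8: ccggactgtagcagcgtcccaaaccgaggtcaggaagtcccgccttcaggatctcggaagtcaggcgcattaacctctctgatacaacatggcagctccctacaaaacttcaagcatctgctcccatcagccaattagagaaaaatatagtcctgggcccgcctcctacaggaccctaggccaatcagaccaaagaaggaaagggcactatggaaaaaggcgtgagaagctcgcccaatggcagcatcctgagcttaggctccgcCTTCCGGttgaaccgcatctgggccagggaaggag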

How the data were processed

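Total RNA of sorted GFP+ cells was hybridized to GeneChip Mouse Exon 1.0 ST arrays (Affymetrix), 6 in all. For 23332 transcript clusters the authors deposited a log2 signal per array. Per the submitters' processing notes these were made with oligo on the mm9 assembly; the version of oligo and the method of background correction and normalization are not given in the sources used here. The values were used as deposited, with no filter and no pseudocount.

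Genes were named from the platform annotation, from clusters with a single symbol, and all 60 symbols were found in RefSeq (GRCm38.p6). The genes and all lists were chosen with earlier results of these data known. Comparisons between stages used limma 3.58.1 in R 4.3.3 (lmFit and eBayes, a mean per stage, all 6 arrays, two-sided, no term for the replicate number). Benjamini-Hochberg adjustment ran over all clusters, and an adjusted p under 0.05 was called. The model was tested on simulated data. The paper's methods give general tests for comparing groups and none for the arrays in particular. Lists were described by counts and medians, with no test.

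Differences were also taken between arrays of the same replicate number, which the labels give without saying what the arrays share. Full values were given, by rule, for the genes of each complex with the highest and lowest difference and the smallest p between E12.5 and E10.5, for genes with an isoform partner, for *Atp5d* and *Ndufv3*, and for the gene with the smallest p of each list. Genes shown beyond this rule, such as *Ndufs6*, *Ndufs8*, *Ndufa8*, *Ndufa9*, *Ndufa12*, *Ndufb10*, *Ndufc2*, *Ndufv2*, *Sdha* and *Atp5a1*, and the promoters, were chosen after their values were seen. No protein sequence was used here, and the 7 clusters with several symbols were not analysed. Alternatives were quantile normalization, centring arrays on their medians without and with scaling of their spread, a replicate block, other moderation, limits to some clusters, the compared stages alone, and leaving out each array. Figures were drawn in Python 3.11.15 with pandas 2.3.3 and matplotlib 3.10.9.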

Additional observations from a re-analysis of the deposited data

How the results depend on the processing

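With 2 arrays per stage, signals near background on the replicate 1 arrays and a single array at E10.5 that stood apart, differences smaller than the spread between replicates could not be resolved, and a missing call does not show that a gene did not differ. In the fits that kept all 6 arrays, 0 of the 60 genes were called in any comparison. With the test as reported, the unadjusted p was under 0.05 for 928, 465 and 212 clusters (E12.5 against E10.5, E11.5 against E10.5, E12.5 against E11.5) and for 0 of the 60 genes. In the comparisons of E12.5 and of E11.5 with E10.5, it was under 0.05 for 2 genes and 1 gene with a replicate block. The block gave 960 higher and 1138 lower of all 23332 clusters in the first comparison, and 541 and 702 in the second. With the block and single-gene clusters it was so for 4 higher and 3 lower genes, and for 3 higher and 2 lower. Of the 14996 single-gene clusters these were 998 and 768, and 524 and 395. With the block and quantile normalization it was 1 gene each, with 1128 and 924, and 627 and 577, of the 23332 clusters.

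The replicate numbers were checked for pairing. The difference between numbers 2 and 1 correlated across clusters between stages (r = 0.46, 0.47 and 0.48), and replicate 1 arrays had the higher background at every stage, but the labels do not say what arrays of the same number share, and 2 numbers are too few to show that they pair the samples. With a replicate block, 0 clusters were called in each comparison. With the block and only clusters that name 1 gene, an alternative chosen after seeing the data, 27 clusters were called between E12.5 and E10.5 and 0 of the 60 genes.

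Leaving out 1 array moved the clusters called from 0 to at most 325 between E12.5 and E10.5 and from 0 to at most 250 between E11.5 and E10.5, and the genes called from 0 to at most 4 in both. All of these calls came without E10.5 replicate 2. Between E12.5 and E10.5 the median difference of the 60 genes ran from -0.15 to 0.27, and by complex from -0.21 to 0.30 (I), -0.29 to 0.0046 (I assembly factors), -0.12 to 0.40 (II), -0.24 to 0.80 (III), -0.10 to 0.28 (IV) and -0.14 to 0.86 (V). Between E11.5 and E10.5 it ran from -0.18 to 0.28 (I), -0.24 to 0.10 (I assembly factors), 0.02 to 0.55 (II), -0.24 to 0.63 (III), -0.09 to 0.09 (IV) and -0.12 to 0.88 (V), and between E12.5 and E11.5 from -0.23 to 0.13 (I), -0.22 to 0.16 (I assembly factors), -0.30 to 0.0083 (II), -0.11 to 0.17 (III), -0.11 to 0.096 (IV) and -0.20 to 0.059 (V). Without E10.5 replicate 1, where 1 array then stands for E10.5, genes that did not overlap numbered 4 higher and 28 lower between E12.5 and E10.5. Between E11.5 and E10.5 they numbered 7 and 34. The shares of all clusters were 33.9% and 29.7%, and 37.9% and 26.9%. Those of single-gene clusters above the limit were 29.2% and 42.2%, and 29.1% and 40.1%.

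The 228 leave-one-out values of single genes between E12.5 and E10.5 include those without an E11.5 array, which cannot change that difference. The fitted differences turned in sign for 20 of the 228 values. Their lowest and highest values were -0.12 and 1.64 for *Atp5b*, -1.08 and 0.26 for *Atp5j2*, -0.060 and 1.49 for *Cox4i1*, -1.17 and 0.027 for *Cox4i2*, -0.39 and 3.79 for *Cox6b1*, -0.58 and 1.20 for *Cox7a2*, and -1.07 and 0.32 for *Cox8b*. They were -0.41 and 0.99 for *Cyc1*, -0.016 and 2.41 for *Ndufa9*, -0.22 and 3.26 for *Ndufb3*, -0.29 and 2.24 for *Ndufc2*, -0.15 and 0.043 for *Ndufv3*, -0.12 and 0.83 for *Sdhb*, -0.34 and 1.11 for *Uqcrc2*, -0.17 and 0.056 for *Uqcrfs1*, and -0.11 and 2.57 for *Vdac1*. For all but *Cox8b*, which turned without E12.5 replicate 2, the ends of the range were set by leaving out an E10.5 array.

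Of 411 values of single genes under the other settings, 5 turned. Without a change of scaling, the replicate block, other moderation, limits to some clusters and the compared stages alone leave the fitted difference as it was. Only values under another scaling could therefore turn. With each array centred on its median, *Ndufv3* was at 0.078 and *Uqcrfs1* at 0.078, and with centring and scaling *Ndufv3* was at 0.032, *Cox7b2* at 0.035 and *Atpif1* at -0.0093. Centring moved the median difference of all clusters between E12.5 and E10.5 from -0.10 to 0.03, and that of the 60 genes from 0.08 to 0.21. By complex, centring gave 0.23 (I), -0.083 (I assembly factors) and 0.27 (II), centring with scaling gave 0.18 (I) and -0.13 (I assembly factors), and genes above the detection limit gave 0.19 (I). For the assembly factors, quantile normalization gave -0.11 and centring 0.047 between E11.5 and E10.5, and centring with scaling gave 0.062 between E12.5 and E11.5. Genes that did not overlap between E12.5 and E10.5 numbered 6 higher and 7 lower after quantile normalization, and 11 higher and 4 lower after centring and scaling (15.6% and 14.4%, and 18.1% and 11.1%, of all clusters). After centring and scaling, 2 lay lower at E11.5 in the comparison with E10.5 (10.7% of all clusters), and 7 were higher and 3 lower between E12.5 and E11.5 (3731 and 2456 of the 23332 clusters). These counts under other scalings were added after seeing the data. The cause of these shifts was not tested.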
